A study of Mus musculus with 10 samples.

Results

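Purkinje cell genes were examined in brain RNA of Slc20a2-HO mice as a set of 10 genes, Pcp2, Car8, Ppp1r17, Rgs8, Slc1a6, Calb1, Itpr1, Pvalb, Pcp4 and Aldoc, taken by name from the 54532 genes of the count table. The set was put together with the levels of these genes in the same mice already known, so that their difference between the libraries below is given as a description and was not tested. The study treated Slc20a2-HO mice, homozygous for the knockout allele Slc20a2 tm1a(EUCOMM)Wtsi, with FTY720, a modulator of sphingosine-1-phosphate receptors, or with placebo. FTY720 was injected into the peritoneum at 0.5 mg/kg in DMSO 3 times a week for 12 weeks from the age of 1.5 months, and the placebo mice received DMSO alone. RNA was taken from 1 of 2 equal parts of each brain and sequenced for 6 FTY720 and 4 placebo mice. All 10 mice carried the same homozygous knockout, and no wild type library was analysed here.

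The name of each mouse holds a digit after the letter for the treatment, as in F1-622 or P3-612, and the sources used here do not say what it stands for. The digit 1 was carried by the FTY720 mice F1-622, F1-624 and F1-918 and by the placebo mouse P1-623. The digit 3 was carried by the FTY720 mice F3-609, F3-612 and F3-908 and by the placebo mice P3-612, P3-904 and P3-907. Treatment was therefore compared within the digit 3, with 3 mice in each group.

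Purkinje cells are large GABAergic neurons that carry the output of the cerebellar cortex. Glutamate from the parallel fibres of granule cells acts on them through AMPA receptors and through a pathway of Gq and phospholipase C that opens the calcium channel encoded by Itpr1 on the endoplasmic reticulum. The calcium that enters the cytosol is bound by the buffers calbindin (Calb1) and parvalbumin (Pvalb). Of the 10 genes, 5 were grouped by textbook anatomy as confined to Purkinje cells within the brain (Pcp2, Car8, Ppp1r17, Rgs8 and Slc1a6) and 5 as shared with forebrain cells (Calb1, Itpr1, Pvalb, Pcp4 and Aldoc).

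Promoter windows of RefSeq on GRCm38.p6, reaching from 250 bases before to 50 after a transcription start, were found for 6 of the 10 genes. For the confined genes with a window, the 200 bases ending shortly after the start are shown 5′ to 3′ on the gene's own strand, since these genes were measured side by side below. Capitals mark AGGTCA, the half-site bound by nuclear receptors such as RORα, a receptor that Purkinje cells express.
Pcp2 (chr8:3625538-3625737, minus strand): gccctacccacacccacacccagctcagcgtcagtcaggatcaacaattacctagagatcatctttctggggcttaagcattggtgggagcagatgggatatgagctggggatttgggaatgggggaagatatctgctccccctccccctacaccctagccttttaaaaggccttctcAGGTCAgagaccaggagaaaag
Slc1a6 (chr10:78780306-78780505, plus strand): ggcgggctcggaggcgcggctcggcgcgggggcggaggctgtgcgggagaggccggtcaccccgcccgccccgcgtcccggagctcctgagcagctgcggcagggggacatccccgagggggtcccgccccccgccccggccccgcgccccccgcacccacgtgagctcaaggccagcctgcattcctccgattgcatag
Rgs8 (chr1:153652847-153653046, plus strand): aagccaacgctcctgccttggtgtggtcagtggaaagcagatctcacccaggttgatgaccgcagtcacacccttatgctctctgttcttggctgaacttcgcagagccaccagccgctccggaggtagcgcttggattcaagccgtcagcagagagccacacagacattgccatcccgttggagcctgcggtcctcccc
The letters AGGTCA, searched on both strands, began 12 bases before the start of Pcp2, at position -12, and on the opposite strand at -164 in the window of Pcp4. They were not found in the windows of Rgs8, Slc1a6, Pvalb and Aldoc. Of all 32851 windows, 5340 (16.3%) held them, so that a match in 2 of 6 windows is given as a description only.

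The column totals of the count table ran from 14772745 to 18303981, and all 45 pairs of libraries differed by more than sampling noise. The targeted gene Slc20a2 had 89 to 294 counts in every mouse of both treatments, which a count over the whole gene does not divide by exon. The first principal component of log2 CPM (counts scaled to the library size by TMM) held 46.8% of the variance and ran from -59.9 to -22.4 in the mice with the digit 1 and from -7.78 (P3-612) to 46.7 (P3-904) in the mice with the digit 3. Mice whose number begins with 6 had 1 to 71 counts of Xist and those whose number begins with 9 had 7742 to 17126, and within the digit 3 the numbers beginning with 9 were carried by 1 FTY720 and 2 placebo mice. Libraries also differed by a trend over gene length, which is given beside the results it touches.

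Pcp2, Ppp1r17 and Car8 were nearly absent or low in the libraries with the digit 1 and abundant in those with the digit 3, while Aldoc and Pcp4 overlapped between the digits. Pcp2 (ENSMUSG00000004630, GRCm38 chromosome 8 from 3623371 to 3625545, minus strand) encodes a modulator of Gi/o proteins and is the classical marker of Purkinje cells. It had 1, 4, 2 and 0 counts in F1-622, F1-624, F1-918 and P1-623, and 337 to 567 counts with a median of 418.5 in the 6 mice with the digit 3. The groups did not overlap, and the lowest mouse with the digit 3 was 85.2 times the highest with the digit 1 in CPM. The means were 25.7 ± 4.67 CPM (SD, n = 6) and 0.107 ± 0.0992 CPM (SD, n = 4), a ratio of 241 with a 95% counting interval from 112 to 575, which rests on 7 counts in all with the digit 1. In bulk RNA, fewer Purkinje cells and less RNA of a gene per cell cannot be told apart.

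Pet100 lies on the opposite strand over Pcp2 and had 66 to 180 counts per mouse, and the strand setting of the counting is not stated. Where Pet100 reached 180 counts, in a library with the digit 1, Pcp2 had at most 4 counts in any library of that kind.

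Ppp1r17 (ENSMUSG00000002930, chromosome 6 from 56017497 to 56032689), which encodes the G-substrate of cGMP-dependent protein kinase, had 19, 17, 11 and 20 counts in F1-622, F1-624, F1-918 and P1-623. In the mice with the digit 3 it had 447 to 673 counts with a median of 589.5. The means were 33.4 ± 5.40 CPM (SD, n = 6) and 1.08 ± 0.320 CPM (SD, n = 4), a ratio of 30.9 with a counting interval from 24.7 to 40.5. Unlike Pcp2, it was counted in each library with the digit 1 above the floor of 3 counts that a count of 0 allows.

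Car8 (ENSMUSG00000041261, chromosome 4 from 8143362 to 8239041, minus strand) encodes a carbonic anhydrase-related protein that binds the Itpr1 channel and lowers its affinity for IP3. It had 164, 254, 203 and 153 counts in the mice with the digit 1, in the same order, and 4334 to 5609 with a median of 4777 in the mice with the digit 3. The means were 282 ± 28.0 CPM (SD, n = 6) and 12.2 ± 2.06 CPM (SD, n = 4), a ratio of 23.1. The level with the digit 1 was thus 4.32% of that with the digit 3 for Car8, 3.23% for Ppp1r17 and 0.415% for Pcp2.

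The other genes grouped as confined had smaller ratios. Rgs8 (ENSMUSG00000042671, chromosome 1 from 153653025 to 153700323), a regulator of G protein signaling that speeds the hydrolysis of GTP by Gα subunits, had 1415, 1876, 2155 and 1667 counts with the digit 1 and 4015 to 6216 with the digit 3 (median 5233). Slc1a6 (ENSMUSG00000005357, chromosome 10 from 78780496 to 78814765), which encodes the glutamate transporter EAAT4 of Purkinje cell spines, had 193, 226, 200 and 253 counts with the digit 1 and 626 to 718 with the digit 3 (median 656.5). Neither gene overlapped between the digits, and their levels with the digit 1 were 38.3% and 35.9% of those with the digit 3. The ratios were 2.61 and 2.79. Both genes were thus well counted in the libraries where Pcp2 had 0 to 4 counts, which goes against a group of genes that follow Pcp2, and below "confined" names only the textbook group. Slc1a6 varied least among the 6 mice with the digit 3, with 38.7 ± 1.67 CPM (SD, n = 6).

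Among the shared genes, Pvalb (ENSMUSG00000005716, chromosome 15 from 78191114 to 78206400, minus strand), also a marker of fast-spiking interneurons of the forebrain, had the largest ratio, 2.82. It had 1026, 817, 1049 and 1055 counts with the digit 1 and 2239 to 4515 with the digit 3 (median 2880.5). Itpr1 (ENSMUSG00000030102, chromosome 6 from 108213096 to 108551109), the IP3 receptor channel, had 5775, 10254, 9063 and 7471 counts with the digit 1 and 10925 to 21249 with the digit 3 (median 17168), a ratio of 1.87. Its groups came close, and the lowest CPM value with the digit 3 (P3-612) was 1.07 times the highest with the digit 1 (F1-624). Itpr1 is a long gene (18319 bases), and libraries differed by a trend over gene length. The slope of the log2 deviation per doubling of gene length was -0.142 in P3-612, the lowest with the digit 3. That slope was 0.0898 in F1-624, the highest with the digit 1. The part of this trend in the size of the gap was not tested. Calb1 (ENSMUSG00000028222, chromosome 4 from 15881264 to 15908064), the calcium buffer, had 3389, 2919, 3129 and 2574 counts with the digit 1 and 4663 to 6470 with the digit 3 (median 6036), a ratio of 1.76. Levels of Pvalb, Itpr1 and Calb1 with the digit 1 were 35.4%, 53.4% and 56.7% of those with the digit 3.

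Pcp4 and Aldoc, both shared with forebrain cells, did not separate the digits. Pcp4 (ENSMUSG00000090223, chromosome 16 from 96467606 to 96525793), which encodes a small regulator of calmodulin, had 859, 585, 650 and 753 counts with the digit 1 and 662 to 1363 with the digit 3 (median 1056). Its ratio was 1.31, and the groups overlapped. Aldoc (ENSMUSG00000017390, chromosome 11 from 78322968 to 78327781), the aldolase that is the zebrin II antigen of Purkinje cell bands and is also abundant in astrocytes, had 13857, 14775, 15925 and 17506 counts with the digit 1 and 13361 to 19725 with the digit 3 (median 16695.5). Its means were 971 ± 149 CPM (SD, n = 6) and 989 ± 116 CPM (SD, n = 4), a ratio of 0.982.

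Thus 8 of the 10 genes were higher in every mouse with the digit 3 than in every mouse with the digit 1, 5 of the 5 grouped as confined, Rgs8 and Slc1a6 among them, and 3 of the 5 shared. Of all 17665 genes tested over the 10 mice, 7.8% were higher without overlap and 6.41% lower; the set was chosen with this contrast known, and nothing is read from the comparison of these shares. The median log2 ratio was 4.53 over the genes grouped as confined, which ran from 1.38 (Rgs8) to 7.91 (Pcp2), 0.82 over the shared genes and -0.01 over all genes tested. A ratio above 10 was met by Pcp2, Ppp1r17 and Car8, and by 0.328% of all genes. A ratio above 2 was met by Rgs8, Slc1a6 and Pvalb as well, and by 4.59% of all genes. The plot of log2 CPM by gene and mouse shows these gaps.

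**Figure D1:**
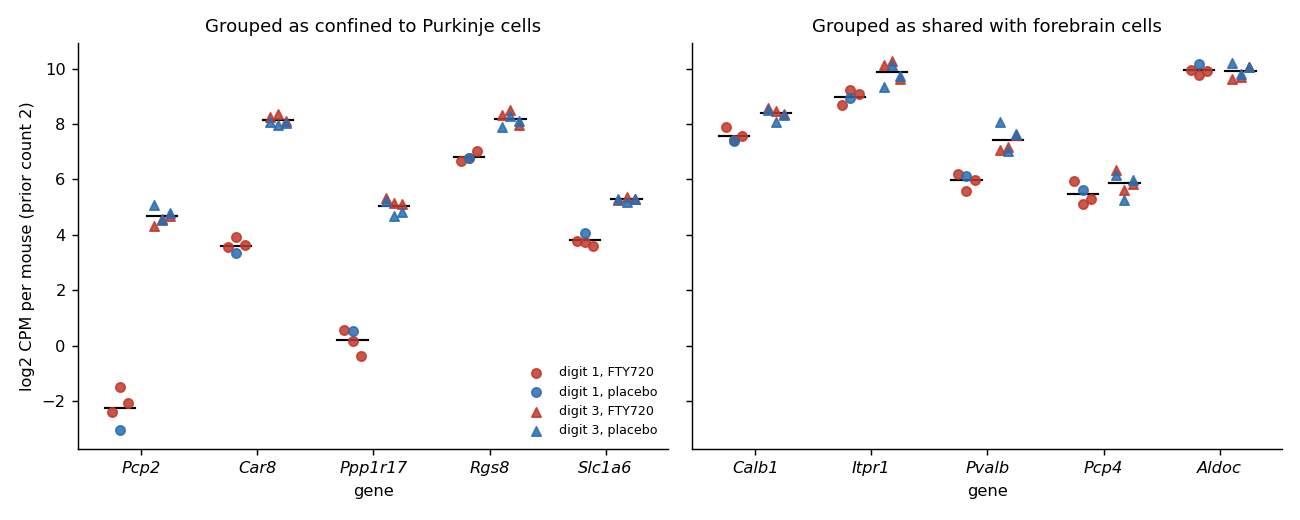
log2 CPM (prior count 2) of the 10 genes in each mouse, with circles for the digit 1, triangles for the digit 3, red for FTY720, blue for placebo and a bar at the mean of each digit. Pcp2, Car8 and Ppp1r17 lie far apart between the digits, Rgs8, Slc1a6 and Pvalb less so, and Pcp4 and Aldoc overlap.

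Levels of different genes were set beside each other per length, as FPKM (fragments scaled to the length of the gene and to the library) from the deposited table. With the digit 3, Aldoc was highest at 294 ± 43.7 FPKM (SD, n = 6), followed by Pvalb at 170 ± 49.98 FPKM and Car8 at 72.6 ± 7.52 FPKM. Calb1 (69.2 FPKM), Pcp4 (57.9 FPKM) and Itpr1 (51.9 FPKM) came next, then Rgs8 (30.1 FPKM), Ppp1r17 (18.8 FPKM), Slc1a6 (17.8 FPKM) and Pcp2 (13.9 FPKM). Of neighbours in this order, the ranges over mice were separate only between Pvalb and Car8 and between Rgs8 and Ppp1r17. Pcp2, which had the largest ratio between the digits of the 10 genes, was the lowest of the 10 per length where it was counted.

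With the digit 1 the order of FPKM values was different for Car8 in particular. Aldoc stood at 299 ± 34.2 FPKM (SD, n = 4), Pvalb at 60.03 ± 10.3 FPKM and Pcp4 at 44.2 ± 11.4 FPKM, and Car8 stood in the eighth place instead of the third, at 3.13 ± 0.532 FPKM. Ppp1r17 (0.607 FPKM) and Pcp2 (0.0577 FPKM) were last. Between them and Pcp4 lay Calb1 (39.2 FPKM), Itpr1 (27.6 FPKM), Rgs8 (11.5 FPKM) and Slc1a6 (6.38 FPKM), and ranges of neighbours overlapped only between Pvalb and Pcp4 and between Pcp4 and Calb1. As a difference of FPKM, digit 3 minus digit 1, Pvalb led with 110 FPKM, followed by Car8 with 69.4, Calb1 with 30.0 and Itpr1 with 24.3, while it was 13.9 FPKM for Pcp2 and -5.14 FPKM for Aldoc.

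**Figure D2:**
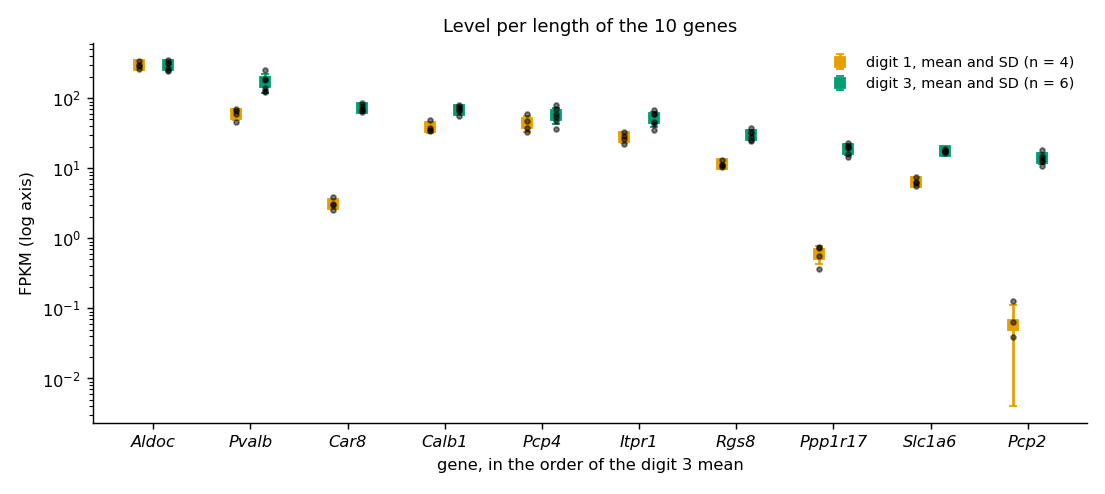
FPKM of the 10 genes on a log axis, in the order of the digit 3 mean, with squares and bars for mean and SD and dots for single mice; P1-623, at 0 FPKM for Pcp2, cannot be drawn on this axis. Car8 drops from 72.6 FPKM with the digit 3 to 3.13 FPKM with the digit 1, and Aldoc stays at 294 and 299 FPKM.

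The genes nearest to Pcp2 over the 10 mice were sought by the root mean square difference of log2 CPM, each gene centred on its own mean. Among 14774 protein-coding genes the nearest 5 outside the set were Crtam (0.38 on the log2 scale), Slc6a5 (0.65), Cnpy1 (0.70), Fat2 (0.78) and Nrk (0.87). Crtam, an immunoglobulin superfamily gene first known from T and NK cells, had 1 to 4 counts with the digit 1 and 279 to 367 with the digit 3. Slc6a5, the glycine transporter of glycinergic neurons, had 2 to 9 and 681 to 1081, and Fat2, a cadherin of cerebellar granule cells, had 5 to 6 and 1540 to 3333. Ppp1r17 ranked 11th (1.18) and Car8 13th (1.22) by this distance, counting Pcp2 itself as the first, whereas Slc1a6 ranked 142nd (2.71), Pvalb 146th (2.72), Rgs8 165th (2.76) and Aldoc 7466th (3.44). The distance was computed over both digits, so that it holds the gap between them.

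Other genes of the pathway and of Purkinje cells were written as lists, and their counts without overlap stand beside 7.8% of all genes higher and 6.41% lower. Of 26 genes of the Gq and calcium pathway outside the set, 10 were higher without overlap with the digit 3 and 1 lower. Their log2 ratios ran from -0.62 to 2.74 with a median of 0.45, below those of Pcp2, Ppp1r17 and Car8. Gnaq, a subunit of Gq, overlapped between the digits (0.04 as a log2 ratio), and Plcb4, the phospholipase C of many Purkinje cells, was higher without overlap (0.93). Of 26 other Purkinje cell genes, 14 were higher without overlap and 2 lower, with log2 ratios from -0.55 to 5.57 and a median of 0.74. Lhx1, a transcription factor gene of Purkinje cells, was among the furthest apart, at 12.6 to 18.01 CPM against 0.786 to 2.65 CPM (3.06), while Gng13 (0.50) overlapped and Dner (0.34) did not.

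Zebrin band genes, Aldoc and Slc1a6 among them, lay on both sides. Of the 5 genes of zebrin-positive bands, Slc1a6 alone was higher without overlap, with a list median of 0.26, and of the 3 of negative bands Plcb4 and Ebf2 were higher and Ncs1 lower, with a median of 0.93. The libraries cannot show bands, since tissue was pooled within each mouse.

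Genes of the neighbouring cells differed by digit to unequal extents. Of 10 granule cell genes 8 were higher without overlap with the digit 3, with a median log2 ratio of 2.74; Gabra6, their GABA receptor subunit, had no more than 4 counts per mouse with the digit 1 and reached 130 to 172 CPM in the others. Of 5 genes of Bergmann glia, the astrocytes beside Purkinje cells, only Gdf10 (1.63) was higher without overlap, with a median of 0.32. Of 9 hindbrain genes, 6 were at 0 in all mice with the digit 1, and 7 were tested over the 10 mice. A gene at 0 with the digit 1 could pass the filter on low counts only through mice with the digit 3. All 7 tested genes were higher without overlap, which for such genes was fixed by the filter, and nothing is read from this count. Genes of cortex and hippocampus lay on the other side, with 0 of 11 higher and 7 lower without overlap and a median of -0.47. Of 7 genes of fast-spiking interneurons, which also express Pvalb, Kcnc1 (0.72) and Syt2 (1.65) were higher, Lhx6 (-0.66) was lower, and the median was -0.07. Of 8 astrocyte genes, which bear on Aldoc, 2 were higher and 1 lower, with a median of -0.01. The part of these cells in the levels of the 10 genes was not tested.

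**Figure D3:**
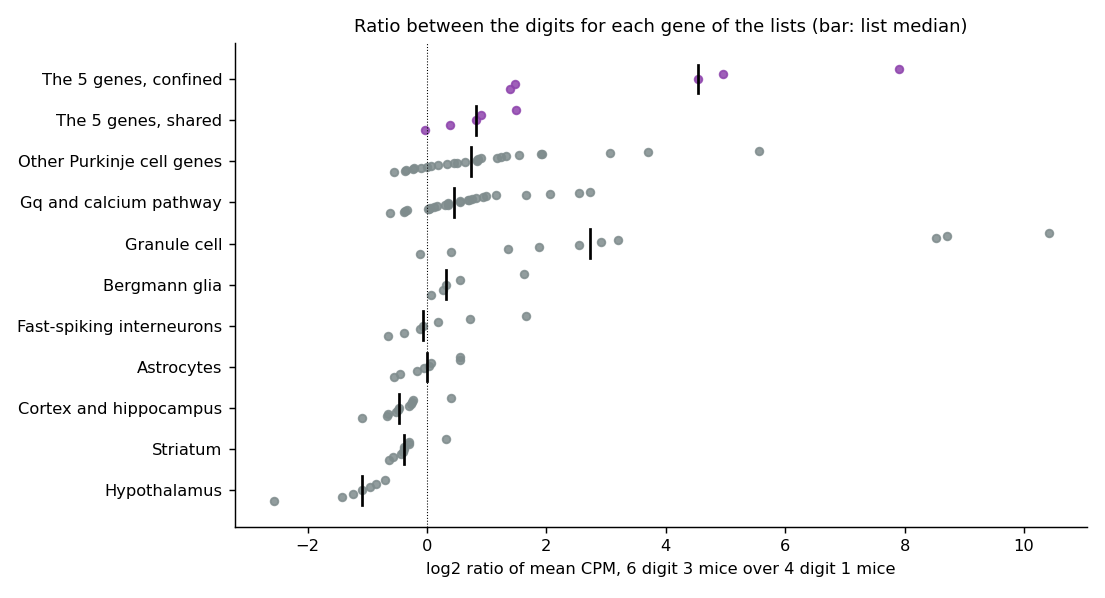
log2 ratio of mean CPM, 6 mice with the digit 3 over 4 with the digit 1, with one dot for each gene and a bar at the median of each list. The confined genes reach from 1.38 (Rgs8) to 7.91 (Pcp2) and the shared genes from -0.03 (Aldoc) to 1.497 (Pvalb), and genes of cortex and hippocampus have a median of -0.47.

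Within the digit 3, FTY720 was compared with placebo for all 10 genes, and no gene of the set passed an unadjusted p of 0.05 in edgeR's quasi-likelihood test fitted over 17656 genes. Fold changes were small, between -0.32 and 0.28 on the log2 scale, with 7 genes higher and 3 lower with FTY720 and a median of 0.14 beside -0.005 over all genes. An unadjusted 0.05 was passed by 1283 of all genes (7.27%), of which 2.78% of all genes lay higher and 4.49% lower with FTY720, and 0 had an adjusted p under 0.05 (edgeR with Benjamini-Hochberg adjustment), where DESeq2 gave 5 and limma-voom 0. DESeq2 and limma-voom also put 0 of the 10 genes under an unadjusted 0.05. Without the filter on low counts, edgeR put Itpr1 (0.28 on the log2 scale) and Pvalb (-0.32) under it, beside 2340 genes in all, of which 134 had an adjusted p under 0.05. With 3 mice in each group the exact permutation p cannot go below 0.1.

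Car8 came nearest to a difference. It stood at 304, 326 and 278 CPM in F3-609, F3-612 and F3-908 and at 269, 250.2 and 265 CPM in P3-612, P3-904 and P3-907. Every FTY720 mouse was above every placebo mouse, which also held for 6.9% of all genes tested, and 6.15% lay the other way. The log2 fold change was 0.22 (SE 0.11, 95% interval -0.02 to 0.46), with p = 0.0707 and adjusted p = 0.654 in edgeR and an exact permutation p of 0.1. Ppp1r17 stood at 40.1, 35.1 and 34.4 CPM with FTY720 and at 36.8, 25.8 and 28.2 CPM with placebo, and the groups overlapped. Its log2 fold change was 0.28 (SE 0.16, interval -0.08 to 0.64; edgeR p = 0.117, exact permutation p = 0.3).

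Pcp2 lay the other way, at 20.1, 23.6 and 25.8 CPM with FTY720 and at 33.7, 23.4 and 27.7 CPM with placebo. Its log2 fold change was -0.28 (SE 0.17, interval -0.66 to 0.10; edgeR p = 0.125, exact permutation p = 0.3), and the groups overlapped through P3-904. The genes nearly absent with the digit 1 thus did not lie on the same side with FTY720, and none passed the test. Rgs8 stood at 317, 362 and 252 CPM with FTY720 and at 239, 311 and 279 CPM with placebo, a log2 fold change of 0.18 (SE 0.15, interval -0.17 to 0.52; edgeR p = 0.281, exact permutation p = 0.4). Slc1a6 was the tightest, at 37.7, 41.2 and 39.2 CPM against 39.0, 36.1 and 38.9 CPM. The log2 fold change of Slc1a6 was 0.06 (SE 0.11, interval -0.19 to 0.30; edgeR p = 0.621, exact permutation p = 0.5).

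The shared genes likewise overlapped between the treatments. Itpr1 had 18692, 21249 and 13253 counts with FTY720 and 10925, 19294 and 15644 with placebo, a log2 fold change of 0.28 (SE 0.21, interval -0.20 to 0.76; edgeR p = 0.225, exact permutation p = 0.4). Pvalb stood at 135, 145 and 196 CPM against 268, 129 and 198 CPM, a log2 fold change of -0.32 (SE 0.25, interval -0.89 to 0.24; edgeR p = 0.227, exact permutation p = 0.6). P3-612 was the highest mouse for Pvalb and the lowest for Itpr1. Calb1 stood at 386, 357 and 331 CPM against 368, 269 and 321 CPM, a log2 fold change of 0.17 (SE 0.14, interval -0.14 to 0.48; edgeR p = 0.254, exact permutation p = 0.4). Pcp4 stood at 81.3, 48.6 and 57.0 CPM against 72.3, 38.2 and 62.8 CPM, a log2 fold change of 0.11 (SE 0.26, interval -0.47 to 0.70; edgeR p = 0.672, exact permutation p = 0.7). Aldoc had 13361, 14216 and 17713 counts against 19651, 15678 and 19725, a log2 fold change of -0.22 (SE 0.15, interval -0.56 to 0.11; edgeR p = 0.162, exact permutation p = 0.2). The intervals reach down to -0.89 on the log2 scale for Pvalb and up to 0.76 for Itpr1, 0.70 for Pcp4 and 0.64 for Ppp1r17, and differences within them were not detectable with 3 mice in each group.

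The 6 libraries differed by gene length, and the 10 genes run from 1026 bases (Pcp4) to 18319 bases (Itpr1). The slope of the log2 deviation per doubling of gene length was 0.0735, 0.0667 and -0.0289 in F3-609, F3-612 and F3-908, and -0.142, 0.0769 and -0.0465 in P3-612, P3-904 and P3-907. P3-612 had the steepest slope, and there Pvalb (1041 bases) lay 0.64 above the mean of the 6 mice on the log2 scale and Itpr1 0.53 below it. In F3-612, with a slope of the other sign, Pvalb lay at -0.25 and Itpr1 at 0.40. Not every gene followed the slope of its library. In F3-609, where the slope was 0.0735, Pvalb lay at -0.35 and Itpr1 at 0.25. There the short genes Pcp4 (1026 bases) and Ppp1r17 (1757 bases) lay at 0.48 and 0.28. Counts of Itpr1 per count of Pvalb ran from 2.42 in P3-612 to 8.62 in P3-904, both placebo mice.

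With a trend over length removed from each library, Car8 and Ppp1r17 passed an unadjusted 0.05, with log2 fold changes of 0.24 (SE 0.094, adjusted p = 0.560 in edgeR) and 0.40 (SE 0.14, adjusted p = 0.560). In this fit 8.77% of all genes passed the unadjusted threshold, 3.14% higher and 5.63% lower. The change of Itpr1 was 0.14 and that of Pvalb -0.18 there. Pcp2 stood at -0.17, Rgs8 at 0.07, Slc1a6 at 0.15, Calb1 at 0.15, Pcp4 at 0.27 and Aldoc at -0.18. This fit was added after the data had been seen.

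**Figure D4:**
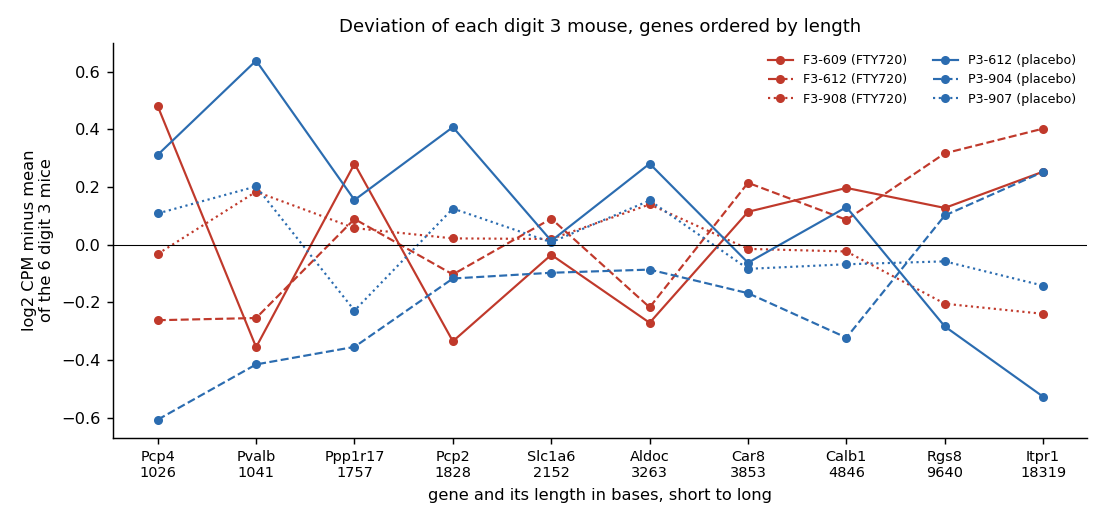
Deviation of each mouse with the digit 3 from the mean of the 6, as log2 CPM, for the 10 genes ordered by length in bases, red for FTY720 and blue for placebo. P3-612 runs from 0.64 at Pvalb to -0.53 at Itpr1, and P3-904 from -0.61 at Pcp4 to 0.25 at Itpr1.

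The comparison rested on single mice. Without the placebo mouse P3-904, Pcp2 (-0.40 on the log2 scale), Itpr1 (0.49), Pvalb (-0.56) and Aldoc (-0.32) passed an unadjusted 0.05 in edgeR, and so did 3896 genes in all. Without F3-908, Car8 (0.28) and Aldoc (-0.36) passed beside 1733 genes in all, and without P3-612 Ppp1r17 (0.45) and Calb1 (0.29) beside 901 genes in all. Without P3-612, Pvalb stood at -0.036, Pcp2 at -0.13, Itpr1 at 0.11, Aldoc at -0.13 and Pcp4 at 0.32, and without P3-904 Ppp1r17 stood at 0.17 and Calb1 at 0.058. Rgs8 stood at 0.053 without F3-612 and at 0.31 without F3-908, and Slc1a6 between 0.018 and 0.085 over the 6 fits. Without F3-609 or P3-907, 388 and 399 genes passed and none of the 10. Pcp4 changed sign, to -0.13 without F3-609 and to -0.11 without P3-904. No gene of the whole table had an adjusted p under 0.05 in any of these fits with a mouse left out (edgeR).

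Over all 10 mice with no covariate, 0 of the 10 genes passed an unadjusted 0.05, where 461 genes (2.61%) did, 1.04% higher and 1.57% lower, and every adjusted p was 0.999918 or more (edgeR). The digit is unevenly spread over the treatments, with 3 of 6 FTY720 mice and 1 of 4 placebo mice carrying the digit 1. The log2 fold change of Pcp2 was -0.86 with a standard error of 1.21. It was -1.47 in limma-voom and ran from -1.27 to -0.55 in edgeR with 1 mouse left out. Aldoc, which overlapped between the digits, had -0.23 (SE 0.11, edgeR p = 0.0639, exact permutation p = 0.0619). With the digit as a covariate, Car8 (0.26, SE 0.097, adjusted p = 0.364) and Aldoc (-0.25, SE 0.11, adjusted p = 0.369) passed an unadjusted 0.05 in edgeR, as did 12.8% of all genes, 4.98% higher and 7.79% lower. The difference of the treatment effect between the digits was tested as an interaction for the 9 genes with counts enough in both, and 0 had a p under 0.05, the smallest being that of Slc1a6 (0.40, SE 0.20, adjusted p = 0.999943 in edgeR). In this test 1.95% of all genes passed an unadjusted 0.05, 0.877% with a higher and 1.08% with a lower effect for the digit 3, and 0 an adjusted one, and the effect with the digit 1 rests on a single placebo mouse.

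**Figure D5:**
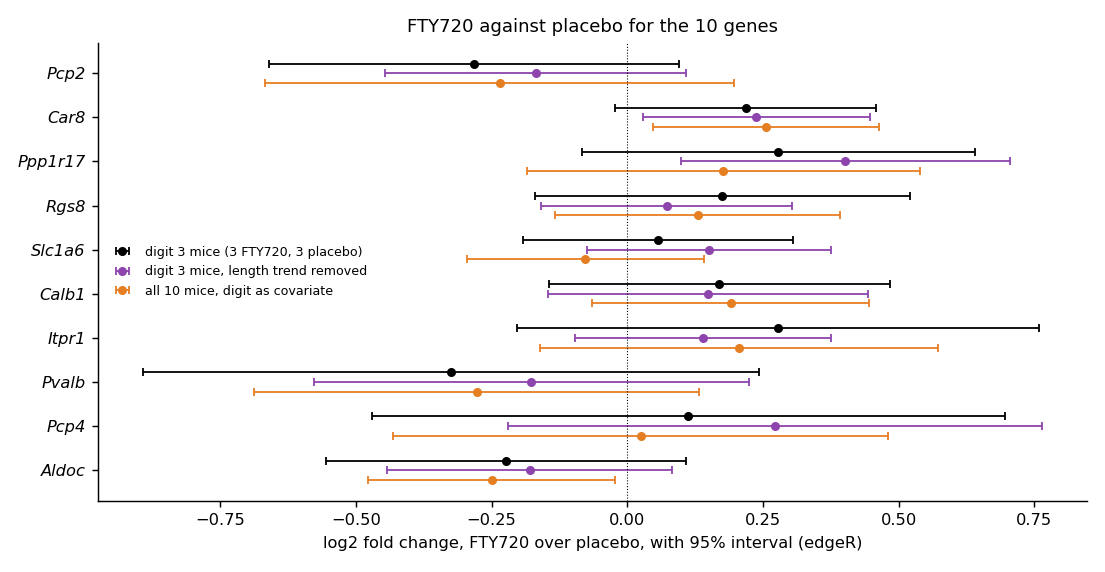
log2 fold change of FTY720 over placebo with its 95% interval from edgeR for the 10 genes, in the 6 mice with the digit 3 (black), in the same mice with a trend over gene length removed (purple) and in all 10 mice with the digit as a covariate (orange). All 10 black intervals hold 0, and those of Car8 in purple and orange, Ppp1r17 in purple and Aldoc in orange do not.

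Few genes of the other lists passed an unadjusted 0.05 between the treatments within the digit 3. The 26 genes of the Gq and calcium list had a median log2 fold change of 0.07. Of the 26 other Purkinje cell genes, the transcription factor genes Lhx1 (0.35) and Ebf1 (0.36) were higher and Slc32a1, the vesicular GABA transporter, was lower (-0.31), with a median of 0.06. None of the zebrin band genes passed, with medians of -0.02 and 0.15. Of the granule cell genes, Cbln3 (0.28) and Neurod1 (0.28) were higher, with a median of -0.02. Of the genes of Bergmann glia, cerebellar interneurons and nuclei, fast-spiking interneurons and astrocytes 0 passed (edgeR), with medians of -0.19, 0.03, 0.04 and -0.08. All of these had an adjusted p of 0.654 or more (edgeR), and 2.78% and 4.49% of all genes passed in the 2 directions.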

How the data were processed

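The authors deposited whole-number counts per gene and mouse without normalization, and FPKM values that the authors made from them with the gene length and a library total other than the column total. Per the labels, CASAVA 1.8, fastp, HISAT2 2.0.5, featureCounts 1.5.0-p3 and DESeq2 1.20.0 were used on GRCm38; the strand setting and annotation release are not given in the sources used here.

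Genes were kept by filterByExpr, scaled by TMM and fitted in edgeR 4.0.16 under R 4.3.3 (quasi-likelihood test), FTY720 against placebo, in the 6 mice with the digit 3 and in all 10, with Benjamini-Hochberg adjustment over all genes tested. Each of the 10 genes also had an exact permutation test, two-sided, on its mean log2 CPM with a prior count of 2, over 20 or 210 splits. All 10 genes passed the filter. CPM values per mouse are scaled over all 10 mice. Levels by digit were described without a test; counting intervals are 95% Poisson intervals and cover counting error only, and a group at 0 was set to a floor of 3 counts over the group. FPKM served only to compare genes with each other.

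The genes and lists were chosen with earlier results of these data known. The lists were the Gq and calcium pathway, other Purkinje cell genes, zebrin bands, granule cells, Bergmann glia, cerebellar interneurons and nuclei, hindbrain, cortex and hippocampus, striatum, hypothalamus, fast-spiking interneurons, astrocytes and T cells. Named were the 10 genes, list members with an unadjusted p under 0.05 or standing first in their list, the 5 protein-coding genes nearest to Pcp2, Slc20a2 and overlapping genes; other list members were named after their values were seen, and some list members are not reported here. Alternatives were RLE scaling, column totals, no filter, DESeq2 1.42.0, limma-voom (limma 3.58.1), each mouse left out, the digit or the 6 or 9 that begins the mouse's number as covariates and, added later, a spline trend on gene length removed (3 degrees of freedom). The pipeline was tested on simulated counts. The study states that littermates were used, and the labels do not say which mice shared a litter or batch. The p-values set a difference between groups against the spread between these mice.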

Additional observations from a re-analysis of the deposited data

Results flagged for a closer look

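Of 40 sets of mice tested for a mouse that stands apart from the rest of its set, 2 held one. That is as many as chance gives, at about 1 in 20. In both it was the placebo mouse P1-623 among the 4 placebo mice. The genes were chosen with the gap between the digits known. These sets restate that gap, and nothing is read from their number. Car8 stood at 10.02 CPM in P1-623 and at 250.2 to 269 CPM in the other 3 placebo mice, so that the gap took 0.927 of the whole range. Slc1a6 stood at 16.6 CPM in P1-623 and at 36.1 to 39.0 CPM in the others, with a gap of 0.871 of the range. P1-623 is the 1 placebo mouse with the digit 1, and its values lay beside those of the 3 FTY720 mice with that digit, 11.6 to 14.97 CPM for Car8 and 11.99 to 13.7 CPM for Slc1a6.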

How the results depend on the processing

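With each mouse left out the log2 ratio of Pcp2 between the digits ranged from 7.50 (without P1-623) to 8.66 (without F1-624, which held 4 of the 7 counts with the digit 1), that of Aldoc changed sign between -0.087 and 0.052, and the median of the 10 genes from 1.38 to 1.46. For FTY720 against placebo with the digit 3, no filter on low counts gave 2340 genes at an unadjusted 0.05, 134 adjusted, and 2 of the 10 genes; DESeq2 gave 5 adjusted; the digit as a covariate over all 10 mice gave 2256 genes, 2 of the 10 genes and -0.077 for Slc1a6; the 6 or 9 that begins the mouse's number gave 738 genes and 0 of the 10; and removal of the length trend gave 2 of the 10. With 1 mouse left out there were 388 to 3896 genes, 0 adjusted and 0 to 4 of the 10, and Pcp4 ranged from -0.13 to 0.32. Over all 10 mice, no filter gave 1117 genes, and limma-voom gave -0.027 for Itpr1. There the digit as a covariate gave 2256 genes, 2 of the 10, and Car8 0.26, Ppp1r17 0.18, Rgs8 0.13, Calb1 0.19 and Pcp4 0.024, which had been negative. Adding the 6 or 9 that begins the number gave 1936 genes, 2 of the 10, and Car8 0.24, Ppp1r17 0.10, Rgs8 0.14 and Calb1 0.17. The digit with the length trend removed gave 2244 genes, 3 of the 10, and Car8 0.28, Ppp1r17 0.32, Rgs8 0.036, Slc1a6 0.031, Calb1 0.18 and Pcp4 0.19. With 1 mouse left out there were 281 to 984 genes and 0 to 1 of the 10, with Rgs8 from -0.38 to 0.020, Calb1 from -0.19 to 0.14, Pcp4 from -0.22 to 0.094, Itpr1 from -0.16 to 0.24 and Ppp1r17 from -0.68 to 0.024. The cause of these shifts was not tested. No paired analysis was possible because the treatments share only 1 mouse number. Depth limits Pcp2 with the digit 1, where 3 of 4 mice had 2 counts or fewer.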

Other observations

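Among lists of other regions, genes of the striatum had a median log2 ratio of -0.39 between the digits, with 0 of 9 higher and 1 lower without overlap (Drd1, a dopamine receptor, -0.40), beside 7.8% and 6.41% of all genes. Genes of hypothalamic neuropeptides had a median of -1.08, with 2 of 7 lower without overlap, oxytocin (Oxt, -2.57) and thyrotropin-releasing hormone (Trh, -1.08). Of 8 genes of cerebellar interneurons and nuclei, 7 were tested over the 10 mice. Of these 7, 3 were higher without overlap, among them Pax2 (3.76), and 1 lower, with a median of 0.22. Of 6 T-cell genes only Trac and Cd4 passed the filter, and both overlapped between the digits.

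Within the digit 3, Adora2a (-0.50) of the striatal list, Emx1 (-0.68) of the cortical list, Pomc (-1.21) of the hypothalamic list and Hoxb5 (-0.56) and Hoxb3 (-1.08) of the hindbrain list were lower with FTY720 at an unadjusted p under 0.05, each with an adjusted p of 0.654 (edgeR), and neither T-cell gene passed. List medians were -0.23 for striatum, -0.11 for cortex and hippocampus, -0.59 for hypothalamus, -0.24 for hindbrain and -0.19 for the T-cell genes. Among the 5 genes nearest to Pcp2, Nrk, a protein kinase gene, was higher with FTY720 at an unadjusted p under 0.05 in edgeR (0.51).

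Counts of Pcp2 per 100 counts of Car8 ran from 6.60 to 9.25 in the 3 FTY720 mice and from 9.34 to 12.5 in the 3 placebo mice, without overlap. This ratio was chosen after its values were seen and was not tested. Of single genes tested within the digit 3, 6.9% lay higher and 6.15% lower without overlap, and no such share was computed for ratios. The highest ratio was in P3-612, the mouse with the steepest slope over gene length. Pcp2 (1828 bases) is shorter than Car8 (3853 bases). Counts of Pcp2 per 100 counts of Gabra6 ran from 11.7 in F3-609 to 25.9 in P3-612, and the treatments overlapped.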
